A study of Drosophila melanogaster with 4 samples.

Results

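The members described here are the BEAF-enriched regions of chromosome arm 3L, the left arm of the third chromosome of Drosophila melanogaster. They were chosen by position alone, as the rows of the combined replicate-set list that lie on 3L and are typed as enriched. They number 890 of 5003 enriched regions. The same filter gave 737 of 4169 regions in ChIP replicate 1 and 770 of 4349 in ChIP replicate 2, and these lists served as checks. They are not independent of the combined list, which is of the same 2 replicates. All coordinates are FlyBase release 5, in which the assembled arm is 24543557 bp long, and they run from the telomere at position 1 to the centromere side at the high end.

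Chromatin came from whole wild-type Oregon-R embryos of 14 to 16 h, fixed in 1.8% formaldehyde, and was precipitated with the rabbit polyclonal antibody BEAF-HB, raised against residues 88 to 282 of BEAF. The series has 2 ChIP and 2 input samples, all of this strain and age. Titles decided the groups, because the longer descriptions of ChIP replicate 1 (given as input) and of input replicate 1 (given with the antibody) go against them. Nothing in the labels says whether the replicates came from separate collections, and the input samples have no region list here.

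BEAF (boundary element-associated factor) is made as 2 isoforms from 1 gene, named BEAF32A and BEAF32B in the labels (the latter once as BEAF42B), and binds clusters of the short sequence CGATA. It is known from fly chromatin boundaries, from the interbands of polytene chromosomes and from the promoters of closely spaced housekeeping genes. Pericentric heterochromatin, which the centromere side of an arm borders, is rich in repeats and poor in genes. Neither a sequence nor a gene annotation of release 5 was used here, so regions are given by position and carry no gene names.

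BEAF regions reached both ends of the assembled arm. The first lay at 53450 to 55680 in the combined list, with starts of 53477 in replicate 1 and 53463 in replicate 2. The last lay at 24526386 to 24532102 and ended 11455 bp before the end of the sequence, against 11482 bp in replicate 1 and 11445 bp in replicate 2. In all, the combined regions covered 2.21 Mb or 8.99% of the arm, and replicate regions 7.54% and 8.10%. Density was 36.3 regions per Mb in the combined list (95% exact Poisson interval 33.9 to 38.7) and 30.7 ± 0.951 in the replicates (SD, n = 2). The files hold no read counts, so depth is unknown and intervals cover the counting of regions only.

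BEAF regions thinned out at the centromere side of 3L. The proximal 10% of the arm, from 22089202 to the end, held 49 regions, and the remaining 90% held 841. This corresponds to 20.0 per Mb (14.8 to 26.4) against 38.1 per Mb (35.5 to 40.7), a ratio of 0.524 (95% exact interval 0.385 to 0.700, two-sided exact binomial test, p = 1.84e-06). Replicate 1 had 38 proximal regions, or 15.5 per Mb against 31.6 per Mb elsewhere. Replicate 2 had 43, or 17.5 against 32.9 per Mb. Both replicate ratios, 0.489 and 0.532, were below 1 by the same exact test (p = 2.69e-06 and 1.41e-05), with a mean of 0.511 ± 0.0304 (SD, n = 2).

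Counts were low throughout the last 2.5 Mb, but the bins do not place a sharp onset. In bins of 500 kb counted back from the centromere side, the last 5 bins held 10, 14, 11, 10 and 7 regions, in order toward the end. The 5 bins before them held 35, 34, 13, 26 and 17. Replicate 1 had 10, 11, 8, 7 and 5 in the last 5 bins and replicate 2 had 9, 14, 9, 7 and 7. The bin next to the sparse end, with 17 regions, was at 34.0 per Mb. The bin at 3.5 to 4 Mb held 13, fewer than the 14 at 1.5 to 2 Mb, and the dense bins lay 4 to 5 Mb from the end. With a proximal section of 20% of the arm, which takes in most of those dense bins, the density ratio was 0.944 and no longer passed the exact binomial test (p = 0.53). Regions are also unevenly spread elsewhere on the arm, and the exact test treats them as independent draws, so its p is too small to the extent that they cluster.

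**Figure D1:**
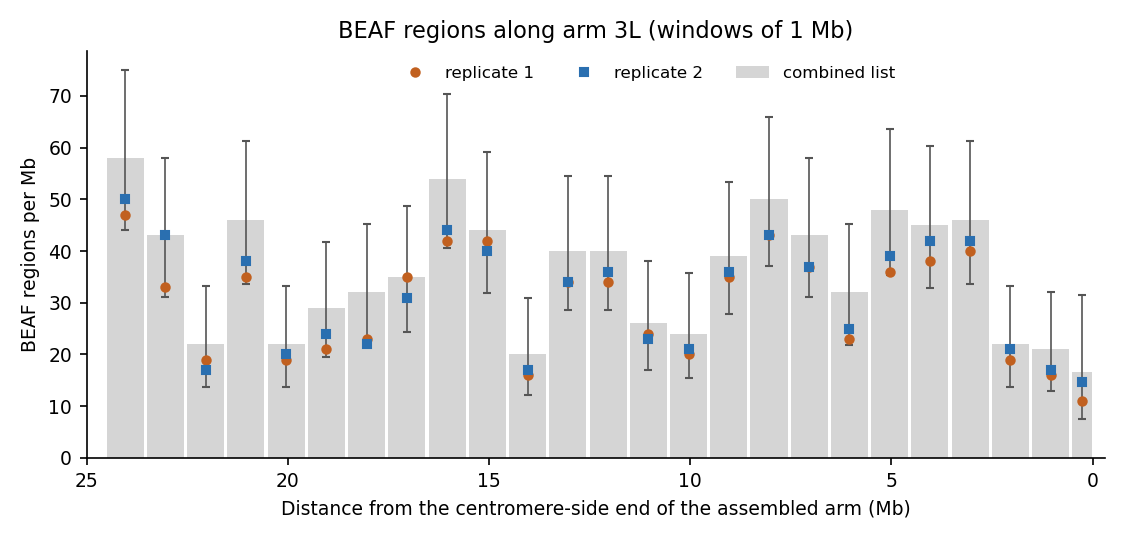
BEAF regions per Mb in 1-Mb windows of arm 3L, drawn against distance from the centromere-side end (telomere at left). Grey bars are the combined list with 95% exact Poisson intervals as error bars, and points are the replicate lists. The last 3 windows hold 22, 21 and 9 regions (the final window is shorter than the others), and single windows farther out fall as low, down to 20.

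Proximal regions were farther apart, and those nearest the end had lower scores. The authors' score, a value per region with no stated scale, had a median of 0.491 in the proximal 10% and 0.776 in the rest, a difference that was not tested. The low value came from the last 1.5 Mb, with a median of 0.368 over 28 regions. The bins at 2 to 2.5 Mb and 1.5 to 2 Mb from the end had medians of 1.40 and 0.908, above that of the rest. Low medians were not particular to the end. The bin at 4.5 to 5 Mb, with 35 regions, had 0.362, and the window 6000001 to 7000000 had 0.370. Regions with a score of at least 2, a limit chosen after the scores were seen, were 9 of 49 proximal regions (18.4%, 95% exact binomial interval 8.76 to 32.0) and 274 of 841 elsewhere (32.6%, 29.4 to 35.9). Over the whole combined list the share was 33.0%. The proximal and distal intervals overlap, which does not decide whether the shares differ, and the difference was not tested. Median width was 2083 bp in the proximal section and 2285 bp in the rest. The median distance between midpoints of neighbours was 27092 bp in the proximal section and 11142 bp elsewhere, and 14 of 48 proximal pairs lay closer than 10000 bp (29.2%), against 387 of 840 (46.1%).

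**Figure D2:**
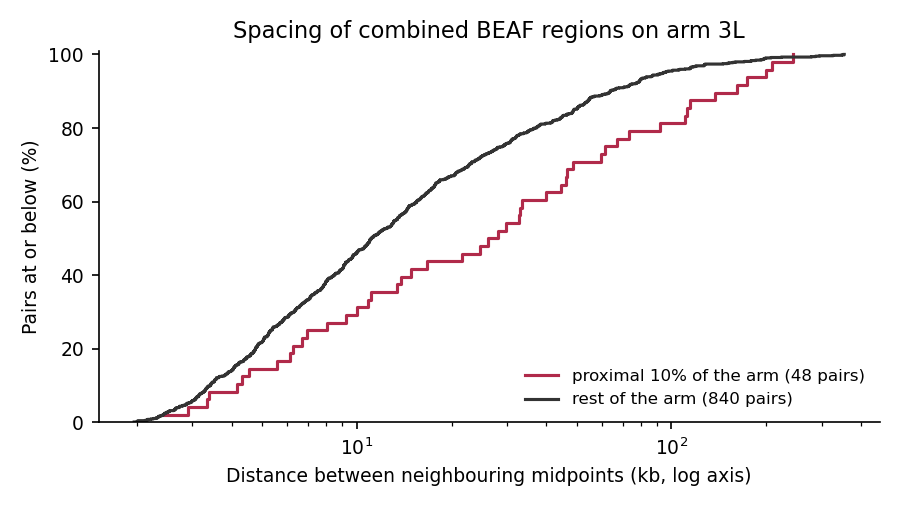
Cumulative share of neighbouring pairs of combined regions (vertical axis, %) by the distance between their midpoints (horizontal log axis, kb), for the proximal 10% of 3L and the rest of the arm. The proximal curve lies to the right, with a median of 27092 bp against 11142 bp.

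The final 1 Mb of the arm held 17 combined regions, 12 in replicate 1 and 14 in replicate 2. Both replicates held 11 of the 17, a single replicate held 3 and neither held 3. All but 2 had scores under 2. The higher of these was the terminal region at 24526386 to 24532102, 5717 bp wide with a score of 2.97, which replicate 1 placed at 24526430 to 24532075 and replicate 2 at 24526388 to 24532112. It stands alone, 238853 bp from its neighbour at 24284496 to 24287532 (score 0.309). The other was 24223396 to 24225834 (score 2.22), listed in replicate 1 at 24223390 to 24225800 and in replicate 2 at 24223416 to 24225829. No combined region with a score of 2 or more lay in the 890 kb between 23333647 and 24223395, the longest such stretch on the arm.

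The remaining regions of the final 1 Mb were mostly low-scoring. A close pair lay at 23572552 to 23574952 (score 0.925) and 23575680 to 23577626 (0.344), 727 bp apart and present in both replicates. Regions at 23719032 to 23720962 (0.291), 23730084 to 23732114 (0.490) and 23762908 to 23764936 (0.370) followed, also in both. The region at 23936806 to 23938210 (0.366) was listed in replicate 1 and not in replicate 2, and that at 23942466 to 23943702 (0.268) the reverse. Both replicates held 24019642 to 24021914 (0.829), 24066176 to 24068216 (0.336) and 24197456 to 24199452 (0.289). Replicate 2 alone held 24068742 to 24070524 (0.0551), and neither replicate list held 23686254 to 23687854 (0.0823) or 24085474 to 24087156 (0.0386). The region at 24015904 to 24017000 is a case apart, since it was only 1097 bp wide and in neither replicate, yet scored 1.53.

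**Figure D3:**
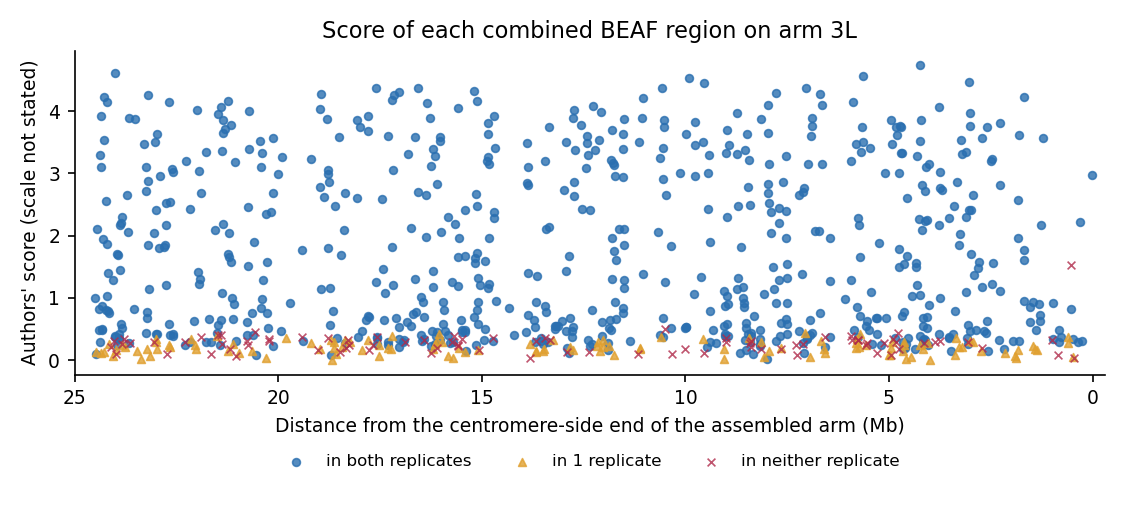
Authors' score of each of the 890 combined regions (vertical axis, scale not stated) by distance from the centromere-side end of 3L (horizontal axis, Mb), with markers for presence in the replicate lists. Few points lie above a score of 2 near the centromere side, and the cross at 1.53 is the region at 24015904 to 24017000, which is in neither replicate list.

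The assembled heterochromatic sequence 3LHet, which belongs to the same arm but is separate in release 5, was sparser still. It held 27 combined enriched regions on 2.56 Mb, or 10.6 per Mb (95% exact Poisson interval 6.96 to 15.4), with 23 in replicate 1 and 22 in replicate 2. The final 1 Mb of 3L had 17.0 per Mb (9.90 to 27.2). The 2 intervals overlap, and the difference was not tested. The treatment of reads from repeated sequence is not given in the sources used here, and its part in the low proximal counts was not tested.

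The large arms differed in how their centromere sides compared with the rest. The proximal 10% held 5.51% of the regions of 3L, 6.20% of those of X, 8.03% on 2R, 9.14% on 2L and 11.7% on 3R. The proximal to distal density ratio was 0.595 on X (95% exact interval 0.457 to 0.762), 0.786 on 2R (0.614 to 0.993), 0.905 on 2L (0.699 to 1.16) and 1.20 on 3R (0.989 to 1.44). Against 3R the proximal share of 3L was lower with an odds ratio of 0.438 (two-sided Fisher's exact test, Benjamini-Hochberg adjusted over 4 arms, p = 4.64e-06). It was also lower than on 2L, with an odds ratio of 0.579 (exact test, adjusted p = 0.00875), in the combined list and in each replicate. The odds ratio against 2L was 0.606 in replicate 1 and 0.613 in replicate 2 (exact test, adjusted p = 0.0463 and 0.0361). The call against 2L was lost in the higher-scoring 50% of regions and with proximal sections of 5% and 20% (exact test, adjusted p = 0.344, 0.202 and 0.18). That against 3R was lost with a section of 20% (exact test, adjusted p = 0.0844). Against 2R the odds ratio was 0.667 (exact test, adjusted p = 0.0449), a call lost in either replicate list (0.690 and 0.686, exact test, adjusted p = 0.124 and 0.0996). That call was also lost in the higher-scoring 50% and with sections of 5% and 20% (exact test, adjusted p = 0.344, 0.205 and 0.814). The difference from X did not pass the exact test (0.882, adjusted p = 0.564), and its odds ratio was 0.861 in replicate 1 and 1.04 in replicate 2. Taken by itself, X was also sparser on its centromere side (two-sided exact binomial test, p = 1.22e-05). How much pericentric sequence each assembled arm includes differs and was not tested, and clustering of regions makes these p-values too small as well.

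**Figure D4:**
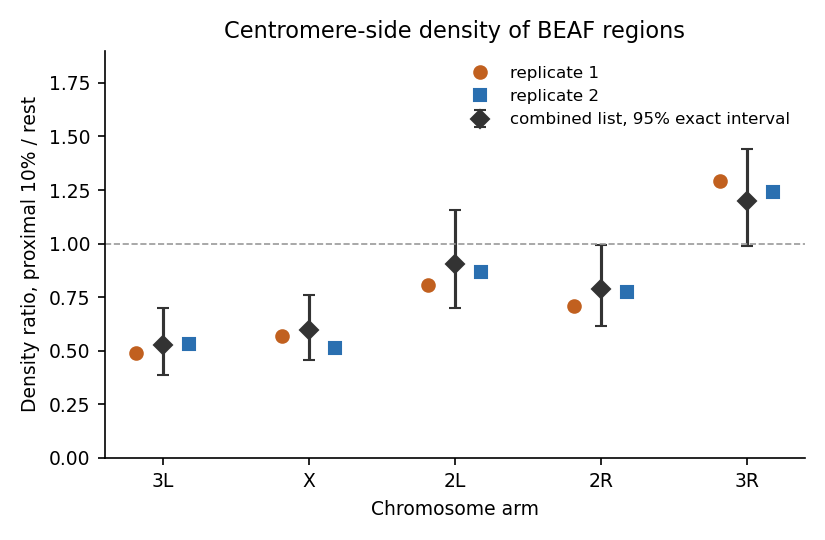
Density of BEAF regions in the 10% of each large arm nearest the centromere divided by that in the rest (vertical axis), for the combined list (diamonds, 95% exact intervals) and each replicate. 3L and X lie at 0.524 and 0.595, and 3R lies above 1.

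Away from the centromere side, sparse and dense windows alternated. Among the 24 full windows of 1 Mb the combined count ran from 20 to 58, with a median of 39.5 and a variance 3.57 times the mean. Replicate 1 ran from 16 to 47 and replicate 2 from 17 to 50. The counts of both replicates rose and fell together over these windows (Pearson's r = 0.97, Spearman's rho = 0.92 over 24 windows, a description, since they share genome sequence and calling). The densest window was the first, next to the telomere, with 58 combined regions, 47 in replicate 1 and 50 in replicate 2. Next came 8000001 to 9000000 with 54 (42 and 44) and 16000001 to 17000000 with 50 (43 in each).

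The sparsest full window was 10000001 to 11000000, with 20 regions (16 in replicate 1 and 17 in replicate 2). Windows 2000001 to 3000000 and 4000001 to 5000000 had 22 each, the same as 22000001 to 23000000, and 23000001 to 24000000 had 21. Low counts of this size were thus not confined to the centromere side. Sparse windows differed in how strong their regions were. In 13000001 to 14000000, with 26 regions, 13 scored 2 or more and the median was 1.96, the highest of the arm. In 23000001 to 24000000, 2 of 21 did so and the median was 0.490. Of 246 bins of 100 kb, 34 held no midpoint of a region (13.8%), and the fullest bins held 13, in 2 places.

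Most of the 8 longest stretches without a region were found at the same places in all lists. Most of the 8 also lay far from the centromere. The longest ran from 13507757 to 13858833 and measured 351.1 kb in the combined list, 351.2 kb in replicate 1 and 351.1 kb in replicate 2. Its telomere side was bordered by a strong region, 13505064 to 13507756 with a score of 4.20, and its centromere side by 13858834 to 13862506 with 2.07. The second ran from 18107075 to 18452705 (346 kb, with 345.8 kb in each replicate), between regions scoring 0.373 and 0.981. The third ran from 9893369 to 10217171 (324 kb, 323.9 and 323.7 kb in the replicates), between regions scoring 0.953 and 0.833. A further one at 10346775 to 10623337 (277 kb in all lists, between regions scoring 0.409 and 0.456) lay in the same sparse window as the end of the third. Borders of these 4 gaps moved by at most 208 bp between lists.

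In other long gaps the border depended on a weak region. The gap at 4826825 to 5120591 (294 kb) ended at 5120592 to 5121846, a region with a score of 0.367 in neither replicate, and measured 299 kb in both replicates. The gap at 17049731 to 17271521 (222 kb) ended at 17271522 to 17272612, likewise in neither replicate (0.2503), and measured 282 kb in each replicate. The gap at 1972277 to 2257161 (285 kb) ended at 2257162 to 2258306, again in neither replicate (0.287). It measured 290 kb in replicate 1, but in replicate 2 it was broken by a region at 2030291 to 2032113 and measured 230 kb. The combined list types that place, 2030342 to 2032022, as depleted. The gap before the terminal region, 24287533 to 24526385, was the seventh longest of the combined list and measured 239 kb in every list. Gaps ranked 9 and 11 by length also lay toward the centromere side, 1.00 and 1.94 Mb from the end. The former, 23333647 to 23539659 (206 kb), ended at a region in neither replicate (0.331) and measured 239 kb in each replicate. The latter, 22402261 to 22600425 (198 kb), measured 199 kb in replicate 1 and 226 kb in replicate 2. Stretches over 100 kb numbered 45 in the combined list and together took up 31.7% of the arm, against 37.9% and 36.6% in the replicates.

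Between the gaps, BEAF regions stood close together. Midpoints of neighbouring combined regions were a median of 11476 bp apart (quartiles 5416 and 30706 bp), against a mean of 27531 bp. Medians in the replicates were 13779 and 12870 bp, or 13324 ± 643 bp (SD, n = 2). Of the 889 neighbouring pairs, 401 or 45.1% lay under 10000 bp, and over all sequences this share was 48.4%. On the other large arms it ranged from 46.6% on 2L to 53.3% on X, a difference that was not tested. A run of regions less than 10000 bp apart reached 10 members at 12998666 to 13041236, all 10 found in both replicates and 5 of them scoring 2 or more. A run of 9 followed at 17002098 to 17049730, also all in both replicates and ending exactly at the border of a 222-kb gap. A run of 8 lay at 9416158 to 9454860, of which replicate 1 held 8 and replicate 2 held 7. Outside such runs, 287 regions (32.2%) had no neighbour that close.

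Some neighbours nearly touched. In 90 of 889 pairs (10.1%) the edges were less than 1000 bp apart, and over all sequences the share was 11.4%. In 58 of the 90 both members were found in both replicates. Of all 3L regions taken 1 by 1, 76.7% were, which is not a like share because a pair needs both members. The share over all neighbouring pairs was not computed. A single replicate 1 region spanned both members in 1 pair and a single replicate 2 region in 4, so most such pairs were also separate in the replicates or lacked a member there. In 46 pairs 1 member scored 2 or more, in 12 both did and in 32 neither did. This split was not computed over all neighbouring pairs either. The closest midpoints, 1960 bp apart, belonged to 5836530 to 5838254 (score 0.321) and 5838432 to 5840272 (0.0774). Next came 19969850 to 19971820 with 19972030 to 19973642 (2001 bp), 639992 to 642046 with 642126 to 643938 (2013 bp), and 15491188 to 15492876 with 15493168 to 15494922 (also 2013 bp). All of these scored under 0.5, which the ranking favours, since midpoints this close need narrow regions and width rose with score. They were followed by 12196130 to 12197998 (0.222) with 12198002 to 12200380 (2.41), whose edges are 3 bp apart and which replicate 1 lists as 1 region and replicate 2 as 2.

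Combined regions of 3L had a median width of 2274 bp, with 2341 and 2357 bp in replicates 1 and 2. Widths ran from 1001 to 8039 bp among combined regions, from 1307 to 8058 bp in replicate 1 and from 1305 to 7998 bp in replicate 2. Regions over 5000 bp numbered 30 (3.37%, 95% exact binomial interval 2.29 to 4.78), 21 in replicate 1 (2.85%) and 27 in replicate 2 (3.51%), and the share over the whole combined list was 4.10%. All 30 were found in both replicates, where the share was 76.7% on 3L. In 8 of them replicate 1 had several separate regions, and in 1 replicate 2 did. Their scores ran from 0.768 to 4.36, with a median of 2.68. In each score class of 0.5 from 0.5 up, 98.1 to 100% of all 3L regions were in both replicates. Of the 30, 1, the terminal region, lay in the proximal 10%, which held 5.51% of the regions of 3L.

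The widest region was 17417210 to 17425248 (8039 bp, score 2.70), listed with nearly the same borders in replicate 1 (17417209 to 17425266) and replicate 2 (17417201 to 17425198). The second, 9389450 to 9396998 (7549 bp), was 1 region in replicate 2 (9389523 to 9397039) and 2 in replicate 1. The third was 19993140 to 20000652 (7513 bp, score 1.67) and the fourth 13993930 to 14001282 (7353 bp, 2.91), each a single region in both replicates. The next, 9418470 to 9425612 (7143 bp, 2.48), ended at 9424059 in replicate 1 and at 9425720 in replicate 2, and is a member of the run of 8.

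Width rose with score. The median was 1689 bp in the lowest score quartile of 3L, 2067 and 2483 bp in the next ones and 2955 bp in the highest. Spearman's rho between score and width was 0.83 over the 890 combined regions, 0.82 in replicate 1 and 0.84 in replicate 2, a description across regions of a list. The lower limit of width rose steadily while the upper one did not. Among regions found in both replicates the narrowest was 2043 bp at scores from 0.5 to 1, 2285 bp from 2 to 2.5 and 2567 bp from 4 to 4.5.

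**Figure D5:**
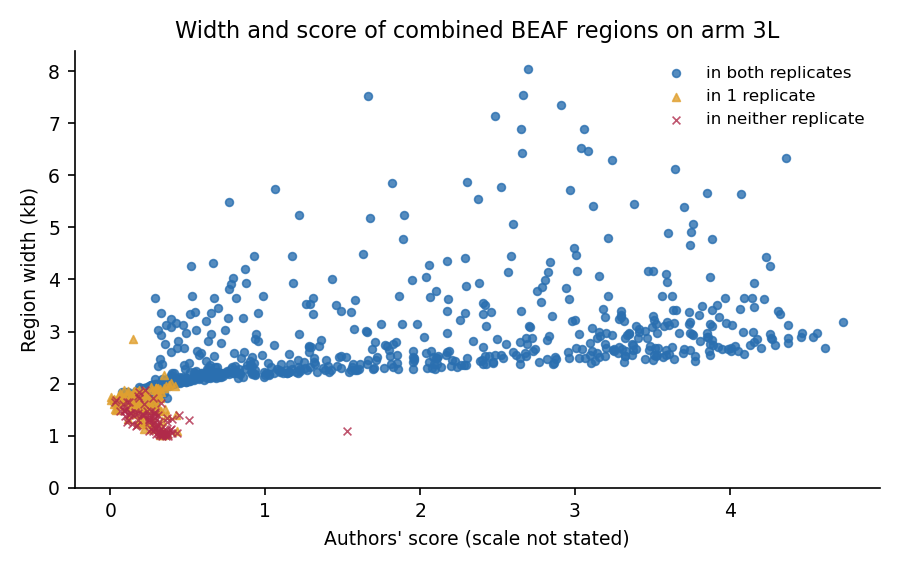
Width (vertical axis, kb) against authors' score (horizontal axis, scale not stated) of the 890 combined regions of 3L, with markers for presence in the replicate lists. Regions in both replicates rise along a sharp lower edge, and those in neither replicate are down to 1001 bp wide and score 0.506 or less, except the region at 24015904 to 24017000 with 1.53.

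Most BEAF regions of 3L were found in both replicates. Of the 890, 683 overlapped a region in each by at least 1 bp (76.7%, 95% exact binomial interval 73.8 to 79.5), against 77.8% over all sequences. A further 121 were in 1 replicate (13.6%, against 12.1% overall), 43 of them in replicate 1 and 78 in replicate 2, and 86 in neither (9.66%, against 10.1%). These shares lie near those of the whole list. In the proximal 10%, 35 of 49 were in both replicates (71.4%, 56.7 to 83.4), against 648 of 841 in the rest (77.1%, 74.1 to 79.9). These intervals overlap, and the difference was not tested.

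The median score on 3L was 1.42 with support from both replicates, 0.195 with support from 1 and 0.278 with none. All 223 regions of the highest score quartile were in both replicates, as were 221 of 222 in the quartile below it, 172 of 222 in the one after and 67 of 223 in the lowest. The exception in the upper quartiles is the 1097-bp region at 24015904 to 24017000. Since the combined list is of the same 2 replicates, its score and this overlap are not independent. Between the replicates, 691 of 737 replicate 1 regions (93.8%) overlapped replicate 2, and 681 of 770 replicate 2 regions (88.4%) overlapped replicate 1. The 46 and 89 without a counterpart had scores of at most 0.601 and 0.738. In 662 pairs that matched only each other, the median distance between midpoints was 30 bp, and 25.5 bp in the 35 proximal pairs. Replicate 2 regions were the wider in 487 of these pairs, by a median of 57 bp over all of them.

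The 10 highest-scoring BEAF regions of 3L were taken among those found in both replicates, so some agreement in place was fixed by the choice. They lay between the telomere side and a point 3.04 Mb from the centromere side. The highest score, 4.73, belonged to 20293994 to 20297178, listed at 20294017 to 20297138 in replicate 1 and 20293996 to 20297168 in replicate 2. It lay 4.25 Mb from the centromere side, in a 500-kb bin with 34 regions. The second, 539330 to 542008 (4.61), lay near the telomere, 57 bp from its nearest neighbour. The third was 18896714 to 18899692 (4.56), whose counterparts stood 42nd by score over all sequences in replicate 1 and 20th in replicate 2. The fourth, 14623962 to 14626862 (4.54), stood by itself, 64447 bp from the region before it and 123615 bp from the one after.

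The next were 21499302 to 21502268 (4.47), 14991400 to 14994300 (4.46), 17505740 to 17508606 (4.38), 13956542 to 13959676 (4.38) and 6947392 to 6950174 (4.37). The tenth, 7966980 to 7973304 (4.36), was 6325 bp wide, while the other 9 measured 2679 to 3185 bp. None of the 10 lay in the proximal 10%, the nearest being 21499302 to 21502268, at 3.04 Mb from the end. That section held only 5.51% of the regions of 3L, so few of any 10 regions would lie there. Of the 223 regions of the highest score quartile, 7 did. Split at a score of 2, neighbours were about as close to strong regions as to weak ones by midpoint. The nearest neighbour of any score was a median of 6514 bp away for the 283 regions scoring 2 or more and 6324 bp for the rest. By score quartile the medians were 7440, 6129.5, 5567 and 6570 bp, from lowest to highest, and these differences were not tested. Midpoint distances include the widths of the regions, which rose with score.

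The combined list typed 23 places as depleted, 6 of them on 3L. All 6 on 3L overlapped an enriched region of 1 replicate, and this share was not computed over the 23. The 6 were 1611 to 1713 bp wide, with scores from -0.0558 to -0.0184, just below the lowest enriched score of 0.00497. Replicate 1 listed 7752830 to 7754195 (score 0.199) and 17797063 to 17798369 (0.244) at depleted places 7752748 to 7754394 and 17796926 to 17798638. Replicate 2 listed regions at the other 4, which are 2030342 to 2032022, 19060276 to 19061886, 19690006 to 19691698 and 24081970 to 24083592. Neither replicate list typed any place on 3L as depleted. How type and score were assigned is not given in the sources used here.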

How the data were processed

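BEAF ChIP-seq regions from 2 ChIP replicates and their combined set were analysed. The authors deposited each list as intervals with a type and a score, on FlyBase release 5 per the file headers. The submitters' processing notes name Bowtie 0.12.7. No source used here gives the peak caller, its thresholds or how the score was defined. The deposited score was used only within a list. Regions were read as 1-based inclusive intervals, with the midpoint as position, and at least 1 bp shared counted as overlap. Densities carry exact Poisson and shares exact Clopper-Pearson 95% intervals. Exact binomial and Fisher tests are over regions of a list. The 2 replicates were not tested against each other or across samples.

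Named regions were the 10 highest-scoring in both replicates, the 5 widest, the first and last, borders of the 8 longest gaps, all in the final 1 Mb, the 5 closest pairs, the 5 highest-scoring in neither replicate, and all depleted ones. Members and measures were chosen with earlier results of these data known. Alternatives were each replicate's list, the higher-scoring 50%, regions in both replicates, other proximal sections and a reciprocal overlap of 50%. A gene table of release 6 was not used. The work was done in Python 3.11.15 with scipy 1.17.1, numpy 2.4.6 and pandas 2.3.3, and the overlap, ratio and gap calculations were tested on simulated data.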

Additional observations from a re-analysis of the deposited data

Results flagged for a closer look

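The proximal share of regions on 3L differed from that on 3 other arms by Fisher's exact test of the difference (two-sided, adjusted over 4 arms). The odds ratio was 0.579 against 2L, 0.667 against 2R and 0.438 against 3R (adjusted p = 0.00875, 0.0449 and 4.64e-06 by the exact test). The proximal share was the lower one on 3L in both replicates in each of these comparisons, and the call against 2R was lost in either replicate list (adjusted p = 0.124 and 0.0996 by the exact test). That call was lost as well in the higher-scoring 50% and with sections of 5% and 20% (exact test, adjusted p = 0.344, 0.205 and 0.814). By the same exact test the call against 2L was lost in the higher-scoring 50% of regions and with sections of 5% and 20% (adjusted p = 0.344, 0.202 and 0.18), and that against 3R with a section of 20% (adjusted p = 0.0844).

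Rows typed as depleted stand outside the comparisons of enriched regions. All 6 such rows of 3L lay at a place that 1 replicate lists as enriched. The share over all 23 such rows of the combined list was not computed, so this is not a trait of 3L.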

How the results depend on the processing

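No paired analysis was possible because the input samples, which share replicate numbers with the ChIP samples, have no region list here. Of 45 alternative values for 11 results, 18 gave the same direction and call, or a shift smaller than the spread between replicates or the counting interval, and the cause of the other changes was not tested. With a proximal section of 20% of each arm, the density ratio on 3L was 0.944, and the odds ratio of the proximal share was 0.812 against 2L, 0.968 against 2R, 0.773 against 3R and 1.11 against X, none past the exact test. With a section of 5%, the odds ratio was 0.606 against 2L and 0.653 against 2R, and among the 50% of regions with the higher score 0.664 and 0.717, none past the test. In single replicate lists it was 0.686 to 0.690 against 2R and 0.861 to 1.04 against X. Density was 30.03 to 31.4 per Mb in single replicate lists and 27.8 among regions found in both replicates. Median spacing was 12870 to 13779 bp in single lists, 14526 bp among regions in both and 20814 bp in the higher-scoring 50%. The longest gap was 351.1 to 351.2 kb in single lists and 441 kb in the higher-scoring 50%. Median width was 2341 to 2357 bp in single lists and 2509 bp among regions in both. The share over 5000 bp was 2.85 to 3.51% in single lists and 4.39% among regions in both. Presence in both replicates was 99.8% in the higher-scoring 50%, which is no independent check, because the combined score is of the same replicates. Read depth, unknown here, limits what the weakest regions can show.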

Other observations

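Combined regions of 3L that neither replicate list holds ran against the general relation of width and score. Over those 86 regions Spearman's rho between score and width was -0.68, against 0.73 over the 683 found in both replicates and -0.04 over the 121 found in 1. Without the region at 24015904 to 24017000 it was -0.68 over 85. Over the 505 such regions of all sequences it was -0.66. These are descriptions across regions of 1 list. Presence in the replicate lists itself varied with score and width, so these groups are selected on both. What this selection does to rho was not tested.

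The 5 highest-scoring regions in neither replicate were all narrow. After the region at 24015904 to 24017000 (1097 bp, score 1.53) came 14046166 to 14047458 (1293 bp, 0.506), 3964194 to 3965594 (1401 bp, 0.445), 19756084 to 19757142 (1059 bp, 0.432) and 3054022 to 3055068 (1047 bp, 0.399). No replicate region was narrower than 1302 bp on any sequence, and 43 of the 86 were below that width, against 15 of the 121 in 1 replicate and 0 of the 683 in both.

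With more than 50 kb free on both sides there were 25 regions on 3L. Of these, 20 were in both replicates, where the share was 76.7% on 3L and 77.8% over all sequences. A score of 2 or more was found in 10 of the 25, where the share was 31.8% on 3L and 33.0% over all sequences.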
